A study of Mus musculus with 6 samples.

Results

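The genes described here are 10 genes of mitochondrial fusion and fission, taken by name from the 21878 gene symbols of the deposited table. They comprised 3 fusion GTPases (Mfn1, Mfn2 and Opa1), 2 proteases that cut the OPA1 protein (Oma1 and Yme1l1), and 5 fission genes, namely the GTPase gene Dnm1l (DRP1) and its membrane receptor genes Fis1, Mff, Mief1 and Mief2. Their RNA levels were measured by RNA-seq in HT22 cells, an immortalized mouse hippocampal line, in a control group and in a group given aluminum maltolate at 120 µM for 24 h (Al group), with 3 libraries in each. The libraries were the input fraction of an m6A immunoprecipitation experiment, that is, RNA that had not been enriched for the methylated base. The treated libraries carry only the letter M in the deposited titles, and were assigned to the Al group because the study's supplementary tables use M and Al for the same comparison; the deposited design text gives a range of doses rather than a single dose. The study's methods give the name control to cells in DMEM only and list the ligand alone as another group. That group is not analysed here, so aluminum and its ligand cannot be told apart in these libraries. According to the paper, preliminary work with maltol alone found no significant change in cell viability or senescence markers.

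Mitochondria join and divide continuously. Mitofusins 1 and 2 fuse the outer membranes and OPA1 fuses the inner membranes, while DRP1, recruited from the cytosol by receptors on the outer membrane, constricts and divides the organelle. OPA1 works as a mixture of long and short forms, and OMA1, a protease activated by stress, and YME1L1, a constitutive protease, produce the short forms. These proteins are also controlled by cleavage and phosphorylation, which RNA levels do not measure.

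The library totals ranged from 37902258 to 44374068 recovered reads for control and from 21047144 to 26572497 for Al. The 50 most abundant genes took 18.7% ± 0.700 and 31.5% ± 1.34 of the summed FPKM, respectively (SD, n = 3 each). FPKM, which is reads per length of gene and per total of counted reads, shifts when a few genes take more of a library. Fold changes are therefore given after scaling of each library by median-of-ratios size factors, and levels are given as deposited. Al replicate 3 had the largest deviation from its group mean, 0.374 on the log2 scale as a root mean square over the tested genes, against 0.311 and 0.329 for the other Al libraries. Of 8 neuronal markers, 5 stayed under 0.1 FPKM in every library, among them Map2 and Rbfox3, and the sum of all 8 was 5.52 to 5.94 FPKM for control and 2.75 to 4.40 FPKM for Al. The sum of 4 fibroblast markers was 2428 to 3953 FPKM for control and 2913 to 4101 FPKM for Al, led by the collagen genes Col1a2 and Col1a1. The fibroblast marker Dcn, at 3.77 to 13.4 FPKM for control and 1.24 to 2.29 FPKM for Al, was lower in every Al library as deposited. Of the neuronal markers, 1, the tubulin gene Tubb3, had a mean of at least 1 FPKM. In such bulk libraries, fewer cells that express a gene and less RNA per cell cannot be told apart.

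The study's thresholds were applied, so that a gene counted as changed when its unadjusted P was under 0.05 and its log2 fold change was over 0.58 in size. Under this rule 50.6% of the 12889 tested genes were called, 26.2% higher and 24.4% lower in the Al group. All 10 members passed the filter for low values and 5 of them were called, so the share of members called was close to that of all genes. After this scaling, Mfn1, Opa1 and Oma1 were lower in the Al group, Fis1 and Dnm1l were higher, and Mfn2, Yme1l1, Mff, Mief1 and Mief2 were not called. With FPKM as deposited, the fission genes Mff and Mief2 were also called lower and no member was called higher, so the split of the calls between fusion and fission genes rested on the scaling. All 5 calls also had a Benjamini-Hochberg adjusted P under 0.05 over all genes, a stricter rule that called 49.2% of the tested genes. The scaled values of the 2 groups did not overlap for the same 5 members, against 68.1% of all tested genes.

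Mfn1 encodes mitofusin 1, the outer-membrane GTPase that tethers and fuses mitochondria. It was at 17.7, 18.3 and 17.2 FPKM in control libraries and at 7.10, 6.72 and 8.26 FPKM in Al libraries. The highest Al library was below every control library by a wide margin. The fitted log2 fold change was -0.78 (SE 0.09, adjusted P = 0.000161 from limma), or 1.72-fold lower. Leaving out each library in turn gave log2 fold changes between -0.80 and -0.74. With 3 libraries against 3, the exact two-sided permutation test for a single gene cannot go below P = 0.1, which is the value Mfn1 had.

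Mfn2 encodes the second mitofusin, which also sits at contacts between mitochondria and the endoplasmic reticulum. Its level was 21.03, 20.1 and 23.3 FPKM in control libraries and 14.0, 14.3 and 11.8 FPKM in Al libraries. The deposited values did not overlap, but the scaled values did, and the log2 fold change after scaling was -0.20 (SE 0.14, adjusted P = 0.259 from limma). The ratio of Mfn1 to Mfn2 within a library, which needs no scaling, was 0.841, 0.913 and 0.738 for control and 0.508, 0.471 and 0.699 in the Al group. The ratio was lower in every Al library than in every control library, with Al replicate 3 closest to the control group.

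Opa1, the gene of the inner-membrane fusion GTPase, was at 10.05, 11.1 and 10.7 FPKM in control libraries and at 4.49, 4.47 and 4.85 FPKM in Al libraries. The 3 Al libraries lay close together and far below the control libraries. The log2 fold change was -0.71 (SE 0.11, adjusted P = 0.000553 from limma), or 1.63-fold lower. Summed over the 3 fusion GTPase genes, the deposited level was 49.9 ± 1.32 FPKM for control and 25.3 ± 0.343 FPKM for Al (SD, n = 3 each), and the scaled level was 41.9 ± 1.54 and 29.96 ± 2.80 FPKM. The deposited sum of the 5 fission genes overlapped, at 144 to 166 FPKM for control and 164 to 184 FPKM for Al. Their scaled sum was 132 ± 8.70 and 207 ± 27.4 FPKM, with no overlap. Of this, Fis1 alone was at 67.1 ± 7.04 and 140 ± 35.1 scaled FPKM. The scaled sum of Mff, Mief1 and Mief2 overlapped between the groups, at 52.0 ± 2.30 and 47.5 ± 5.70 FPKM.

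Oma1 encodes the stress-activated protease that cleaves OPA1 at the inner membrane. It was the lowest of the 10 genes, at 1.35, 1.53 and 1.15 FPKM in control libraries and at 0.379, 0.327 and 0.275 FPKM in Al libraries. All Al libraries were below all control libraries. The log2 fold change was -1.34 (SE 0.25, adjusted P = 0.00161 from limma), or 2.53-fold lower. At this low level the fitted value depended on the pseudocount, and it was -0.62 with a pseudocount of 1, smaller in size than the changes of Mfn1, Opa1 and Fis1, and -1.53 with one of 0.01. Its values rested on 503 to 653 recovered reads per control library and 57 to 99 per Al library. Yme1l1, the constitutive protease, was at 22.6, 28.4 and 22.3 FPKM in control libraries and at 13.8, 16.5 and 20.1 FPKM in Al libraries. Its scaled values overlapped and its log2 fold change was -0.06 (SE 0.13, adjusted P = 0.692 from limma). Oma1 RNA was 5.99%, 5.40% and 5.15% of Yme1l1 RNA per length in control libraries and 2.74%, 1.99% and 1.37% in Al libraries, with no overlap between the groups. The ratio of Yme1l1 to Opa1 was 2.30 ± 0.246 for control and 3.63 ± 0.533 for Al (SD, n = 3 each). The size of such a ratio rests on the gene lengths behind FPKM, whereas its change between the groups does not. With GENCODE exon lengths, Oma1 was 41.7% ± 3.25 of Yme1l1 for control and 15.4% ± 5.18 for Al, and Yme1l1 to Opa1 was 1.46 ± 0.156 and 2.31 ± 0.338.

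**Figure D1:**
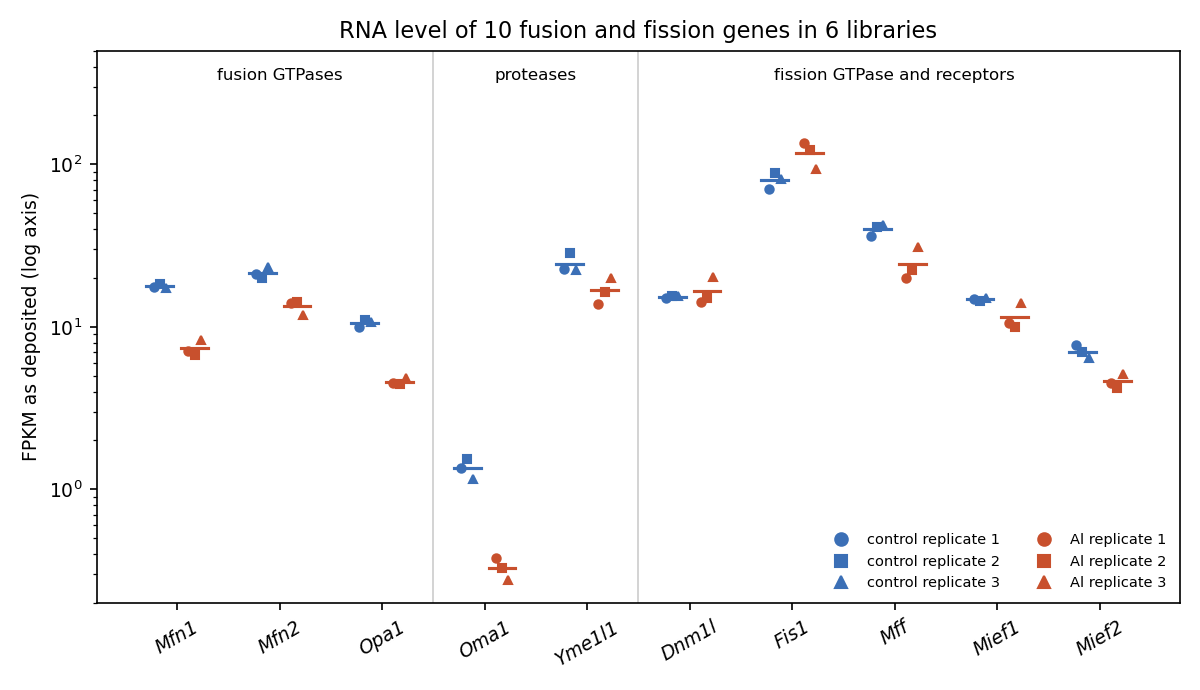
Deposited FPKM (log axis) of the 10 genes in each library; points are single libraries and horizontal bars are group means, with blue for control and red for Al. On this deposited scale 8 genes (all but Dnm1l and Fis1) sit lower in every Al library, and Dnm1l overlaps. Fis1 sits higher, with Al replicate 3 at 93.5 FPKM nearest to the control values. Most tested genes also separated the groups on this scale (70.2% of 12889), with 42% called lower and 14% called higher, so such separation is not particular to these genes.

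The fission genes did not move together. Fis1, whose product is a tail-anchored protein of the outer membrane, was the most abundant member in both groups. It was at 70.4, 88.5 and 80.8 FPKM in control libraries and at 134, 123 and 93.5 FPKM in Al libraries. Every Al library was above every control library, although Al replicate 3 was only slightly above control replicate 2. The log2 fold change was 1.03 (SE 0.19, adjusted P = 0.00159 from limma), or 2.04-fold higher, and without Al replicate 3 it was 1.26. Fis1 has a short gene model of 1113 bases, within the shortest length decile of the tested genes, whose median log2 fold change was 0.45. Centred on that median, the log2 fold change of Fis1 was 0.57 and no longer passed the fold threshold. With its GENCODE exon length of 1714 bases, which falls in the next decile, it was 0.81 and passed. The part of gene length in the difference was not tested.

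Dnm1l, the gene of the fission GTPase DRP1, was at 15.0, 15.4 and 15.4 FPKM in control libraries and at 14.3, 15.1 and 20.3 FPKM in Al libraries. As deposited, the groups overlapped. After scaling, all Al libraries were above all control libraries, and the log2 fold change of 0.584 (SE 0.11, adjusted P = 0.0014 from limma) was just over the fold threshold of 0.58. The call was lost without control replicate 1 (0.56), without control replicate 2 (0.57) and without Al replicate 3 (0.51). A processed pseudogene, Gm13719, shares 602 bases with Dnm1l transcripts at 93.7% identity, and the antisense gene Gm49521 shares 243 bases of its exons, so the level of Dnm1l is uncertain to that extent.

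Mff encodes the receptor generally regarded as a main recruiter of DRP1 in mammalian cells. It was at 36.4, 41.1 and 42.5 FPKM in control libraries and at 20.01, 22.2 and 31.1 FPKM in Al libraries. The scaled values overlapped and the log2 fold change was -0.24 (SE 0.13, adjusted P = 0.124 from limma). Within a library, the ratio of Mff to Dnm1l was 2.43, 2.67 and 2.76 for control and 1.40, 1.47 and 1.54 in the Al group, and these ranges were far apart. With GENCODE exon lengths it was 0.659 ± 0.0429 for control and 0.370 ± 0.0170 for Al (SD, n = 3 each), so whether Mff lay above or below Dnm1l depended on the length used. Mief1 and Mief2 encode the adaptors MiD51 and MiD49, which also bind DRP1 at the outer membrane. Their deposited means were 14.7 ± 0.353 and 7.05 ± 0.670 FPKM for control and 11.5 ± 2.24 and 4.63 ± 0.480 FPKM for Al (SD, n = 3 each). The log2 fold change was 0.12 for Mief1 (SE 0.11) and -0.12 for Mief2 (SE 0.12), and neither was called.

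The makeup of the 4 receptor RNAs was different in the Al group. Fis1 made up 54.4%, 58.6% and 55.8% of their summed FPKM in control libraries and 79.3%, 77.2% and 65.0% in Al libraries. Mff made up 28.3% ± 1.07 for control and 15.8% ± 5.16 for Al (SD, n = 3 each). These shares depend on the gene lengths behind FPKM, and with GENCODE exon lengths Mff made up 11.21% ± 0.536 and 5.81% ± 2.12, and Fis1 67.3% ± 2.57 and 81.0% ± 5.81, with no overlap between the groups. The ratio of Fis1 to Mff was 1.93, 2.15 and 1.90 in control libraries and 6.72, 5.54 and 3.01 in Al libraries, so that Al replicate 3 lay between the other Al libraries and the control group. The ratio of Fis1 to Dnm1l was 4.70, 5.74 and 5.25 in control libraries and 9.41, 8.14 and 4.62 in Al libraries, and here the groups overlapped, with Al replicate 3 below every control library.

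The balance between both sides was taken as the summed FPKM of the 3 fusion GTPase genes over that of the 5 fission genes, a value that is independent of the scaling between libraries. It was 0.338, 0.297 and 0.320 in control libraries and 0.139, 0.146 and 0.152 in Al libraries. The means were 0.318 ± 0.0201 and 0.146 ± 0.00636 (SD, n = 3 each), a ratio of 0.457 between the groups. With GENCODE exon lengths the means were 0.493 ± 0.0313 and 0.213 ± 0.0118, a ratio of 0.433. Since Fis1 dominates the denominator, the balance was also taken without it, and was then 0.658, 0.636 and 0.647 in control libraries and 0.518, 0.494 and 0.353 in Al libraries. By GENCODE exon lengths it was 1.16 ± 0.0293 for control and 0.744 ± 0.141 for Al, so in control libraries the side with the larger sum depended on the length used. With Dnm1l as the sole fission gene it was 3.27 ± 0.0614 for control and 1.57 ± 0.297 in the Al group. The difference of the mean log2 FPKM of both sets, in which every gene has the same weight and the length divisor of FPKM cancels between the groups, was -0.46 ± 0.03 for control and -1.30 ± 0.12 in the Al group. The relation of the change to gene length across the transcriptome does not cancel. The mean fitted log2 fold change of the fusion genes minus that of the fission genes was -0.84, and -0.62 after centring on genes of like length, or -0.72 with members placed by GENCODE exon length. The Al libraries were below all control libraries in each of the forms given per library. No test was applied to these sums, as they combine chosen genes.

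**Figure D2:**
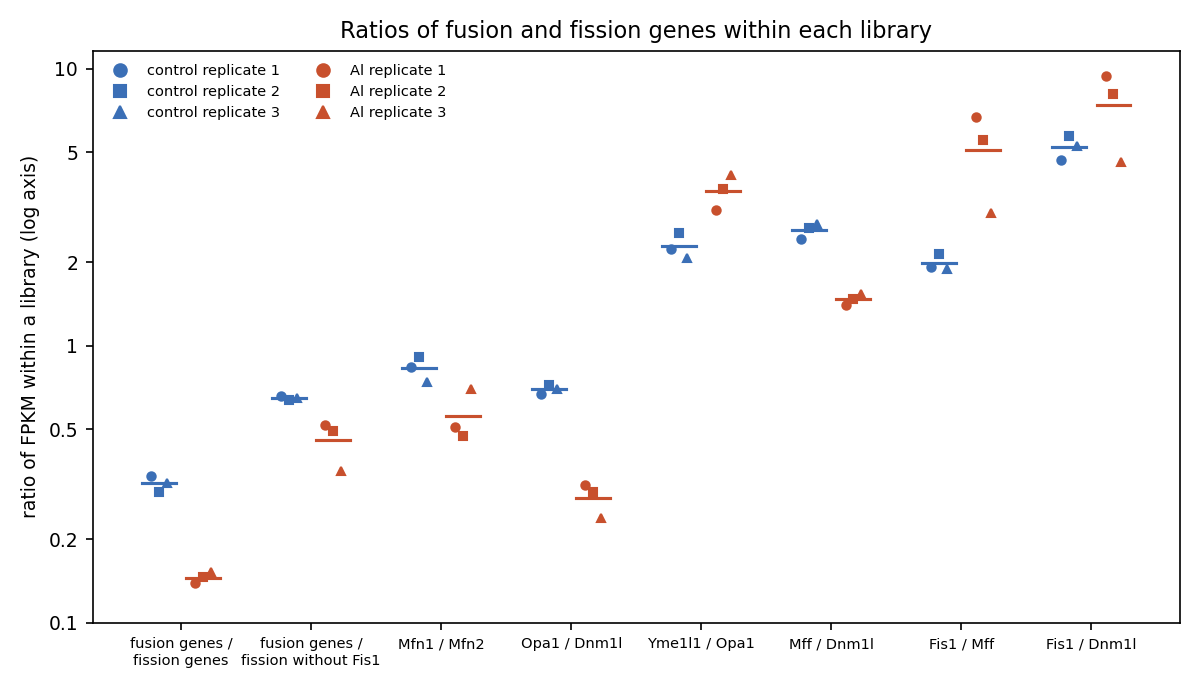
Ratios of FPKM within each library (log axis), with points for single libraries and horizontal bars for group means. The fusion to fission ratio is 0.297 to 0.338 in control libraries and 0.139 to 0.152 in Al libraries, and the groups overlap only for Fis1 to Dnm1l among the ratios plotted.

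The scaling between libraries set whether fission genes were called higher. The sum of the 3 fusion GTPase genes was lower in the Al group both as deposited and after scaling, with Al to control ratios of 0.508 and 0.715. With FPKM as deposited, the log2 fold change of all tested genes had a median of -0.43, in place of 0.03 after scaling. Of the members, 6 were then called lower (Mfn1, Mfn2, Opa1, Oma1, Mff and Mief2) and 0 were called higher, whereas 42% of all tested genes were called lower and 14% higher. Fis1 then had a log2 fold change of 0.54, just under the fold threshold, and Dnm1l one of 0.10. The deposited values of the groups did not overlap for 9 of the 10 members, against 70.2% of all tested genes. Mfn1, Opa1 and Oma1 were therefore lower under both scalings, while the calls for Fis1, Dnm1l, Mfn2, Mff and Mief2 depended on the scaling. The within-library ratios do not depend on the scaling.

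Gene length moved with the change across the transcriptome, from a median log2 fold change of 0.45 in the shortest length decile of the tested genes to -0.27 in the longest. Oma1, with a gene model of 9802 bases, was in the longest decile, and Opa1, with 7506 bases, was in the next. Centred on the median of their deciles, the log2 fold changes were -1.07 for Oma1, -0.73 for Mfn1, -0.57 for Opa1 and 0.63 for Dnm1l. Opa1 then missed the fold threshold by a small margin. The decile of a gene rests on the length behind its FPKM, which for Oma1 is far above its GENCODE exon length of 2144 bases. Placed by GENCODE exon length, the centred values were -1.48 for Oma1, -0.64 for Mfn1, -0.44 for Opa1 and 0.69 for Dnm1l.

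**Figure D3:**
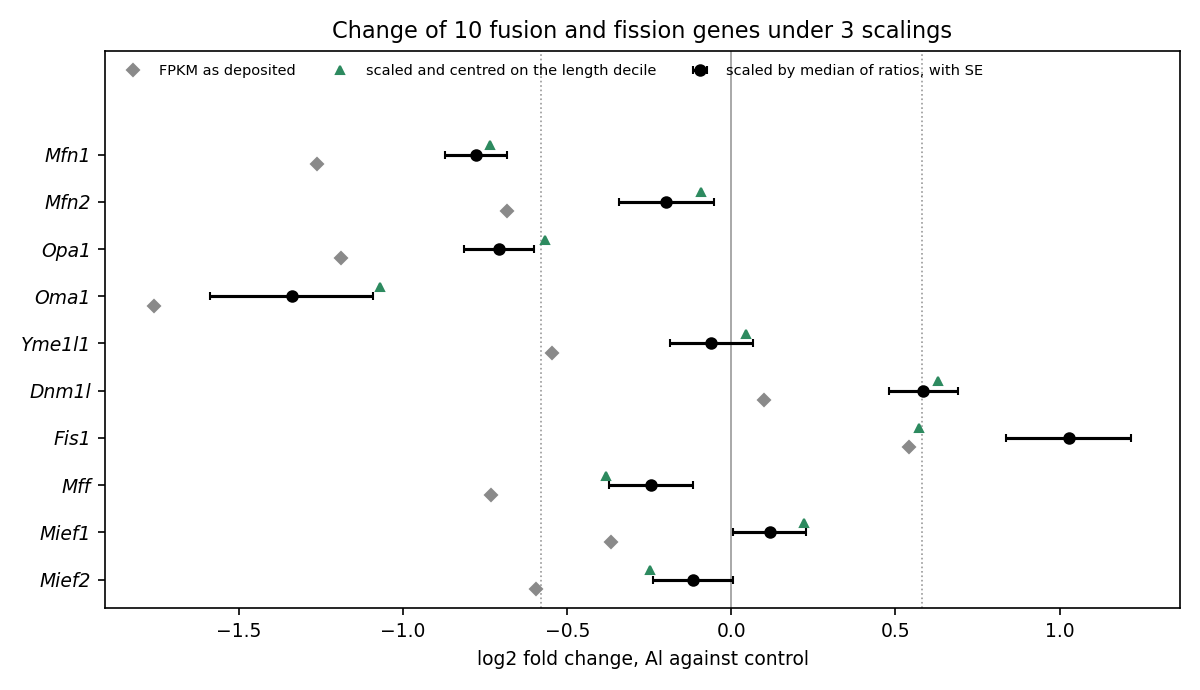
Log2 fold change of the 10 genes, Al against control, after median-of-ratios scaling (black circles with SE), as deposited (grey diamonds) and after centring on genes of like length (green triangles); dotted lines mark the fold threshold of 0.58. Mfn1 and Oma1 lie past the lower line in all 3, and Fis1 lies above 0 in all 3.

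Because FPKM is per length, levels can be set side by side within a group. In the control group the order was Fis1, Mff, Yme1l1, Mfn2, Mfn1, Dnm1l, Mief1, Opa1, Mief2 and Oma1, and only Yme1l1 and Mfn2 overlapped among neighbours. In the Al group it was Fis1, Mff, Yme1l1, Dnm1l, Mfn2, Mief1, Mfn1, Mief2, Opa1 and Oma1, with Mff and Yme1l1, Yme1l1 and Dnm1l, Mfn2 and Mief1, and Mief2 and Opa1 overlapping. These orders depended on the gene models, most of all for Mff. The length behind its FPKM was 2102 bases, whereas the exons of Mff in GENCODE cover 9757 bases, and with that length its control mean would be 8.62 FPKM in place of 40.02 and its rank 8 in place of 2. For Oma1 the lengths were 9802 and 2144 bases, and its control mean would be 6.15 in place of 1.35 FPKM. It would still be the lowest mean but close to that of Mief2, at 6.15 ± 0.875 and 6.54 ± 0.622 FPKM (SD, n = 3 each). With GENCODE lengths Mfn2 moved from rank 4 to 2 and Opa1 from 8 to 6 in the control group, and Dnm1l from 4 to 2 in the Al group, while Mfn1 and Dnm1l were nearly level in control, at 13.1 ± 0.406 and 13.1 ± 0.203 FPKM (SD, n = 3 each). The length also enters the fitted fold change of a low gene such as Oma1, through the pseudocount.

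Promoter sequences of 3 called members are shown because they hold matches to motifs of regulators of mitochondrial genes; NRF1 and GABPA (NRF-2) are transcription factors of many nuclear genes for mitochondrial proteins. Each is the 250 bases before the RefSeq start site on the plus strand of GRCm38.p6, read 5′ to 3′, and capitals mark the motif, for Opa1 at chr16:29579084-29579333, for Mfn1 at chr3:32529232-32529481 and for Fis1 at chr5:136953025-136953274.
Opa1: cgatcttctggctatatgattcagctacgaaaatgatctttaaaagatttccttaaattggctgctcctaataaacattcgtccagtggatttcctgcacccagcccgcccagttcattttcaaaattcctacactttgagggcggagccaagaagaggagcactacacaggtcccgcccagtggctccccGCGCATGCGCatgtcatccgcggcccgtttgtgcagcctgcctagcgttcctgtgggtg
Mfn1: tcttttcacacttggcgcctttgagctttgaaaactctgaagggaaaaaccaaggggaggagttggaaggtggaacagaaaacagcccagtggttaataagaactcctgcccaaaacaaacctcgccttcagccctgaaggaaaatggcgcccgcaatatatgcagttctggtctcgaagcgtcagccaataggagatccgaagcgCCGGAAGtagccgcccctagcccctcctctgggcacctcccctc
Fis1: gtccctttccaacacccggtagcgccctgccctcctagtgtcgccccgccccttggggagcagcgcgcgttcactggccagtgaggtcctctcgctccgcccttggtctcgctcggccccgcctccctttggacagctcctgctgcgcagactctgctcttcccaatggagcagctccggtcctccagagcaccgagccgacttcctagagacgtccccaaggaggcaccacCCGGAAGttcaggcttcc
The NRF1 motif GCGCATGCG was found on both strands of the Opa1 promoter, as overlapping matches that begin 59 and 58 bases before the start, and in no other member. The GABPA motif CCGGAAG begins 44 bases before the start of Mfn1 and 18 bases before that of Fis1.

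Windows of 300 bases, from 250 before to 50 after each start, were searched on both strands in 15 promoters of the 10 members and in all 32851 promoters of the table. The NRF1 motif was in 1 member promoter and in 1.75% of all promoters. The GABPA motif was in 6 promoters of 5 members (Mfn1, Yme1l1, Dnm1l, Fis1 and Mief1) and in 8.86% of all promoters. These members include Mfn1, which was lower, Fis1 and Dnm1l, which were higher, and Yme1l1 and Mief1, which were not called, so members with the motif were found among lower, higher and uncalled genes. The motifs TCAAGGTCA (ERR), TGACGTCA (CREB), TTGCATCA (ATF4 with C/EBP) and AAGATGGCG (YY1) were in 0.423%, 1.79%, 0.895% and 1.4% of all promoters and in 0 of the member windows.

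Among 30 further regulators of fusion and fission, 28 were tested, of which 5 were called higher and 7 lower, or 42.9% against 50.6% of all tested genes. The median log2 fold change was -0.24 against 0.03 for all tested genes, and -0.72 against -0.43 with FPKM as deposited. Among those called higher with a mean of at least 1 FPKM, the largest rise was in Mul1, the gene of a ubiquitin ligase of the outer membrane, at 7.10 ± 0.367 FPKM for control and 14.7 ± 1.07 FPKM for Al (SD, n = 3 each; log2 fold change 1.52, SE 0.13). The others at that level were Mtfr2, a fission regulator (1.05, SE 0.17), Phb, the gene of the inner-membrane scaffold prohibitin (0.75, SE 0.19), and Usp30, the gene of a mitochondrial deubiquitinase (0.62, SE 0.10). Pld6, at 0.451 FPKM for control and 1.54 FPKM for Al, was also called higher (2.08, SE 0.51). Its highest control library, at 0.771 FPKM as deposited, was nearly level with its lowest Al library, at 0.774 FPKM. With FPKM as deposited, Mul1 had a log2 fold change of 1.04, whereas Mtfr2 (0.57), Phb (0.27) and Usp30 (0.13) were under the fold threshold. Usp30 and Pld6 were named after their values were seen.

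The largest decrease in that list was in Slc25a46, an outer-membrane protein gene linked to fusion and to cristae. It was at 8.73, 8.36 and 8.85 FPKM in control libraries and at 1.51, 0.857 and 1.70 FPKM in Al libraries (log2 fold change -2.17, SE 0.22, adjusted P = 5.98e-05 from limma). This change was larger than that of any of the 10 members. Msto1, whose product has been linked to fusion, had a log2 fold change of -1.38 (SE 0.19), and Rala, a small GTPase that acts on DRP1 in mitosis, one of -0.96 (SE 0.11). With FPKM as deposited Slc25a46, Msto1 and Rala had log2 fold changes of -2.64, -1.87 and -1.44, so these directions did not depend on the scaling.

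Fewer calls than the 50.6% of all tested genes were counted in the 3 lists outside fusion and fission, 11.1% for MICOS and cristae, 12.5% for transport and 30% for import, porins and matrix, and these shares were not tested. Of 9 genes of the MICOS complex and cristae, 1 was called higher, Micos10 (log2 fold change 1.04, SE 0.27), and 0 were called lower, with a median of 0.01 after scaling and -0.47 with FPKM as deposited. Micos10 had a deposited log2 fold change of 0.55 and was then under the fold threshold. Of 9 genes of mitochondrial transport, 8 were tested and 1 was called higher, Snph, which was at 0.00557 FPKM for control and 0.243 FPKM for Al and was named after its values were seen. Snph passed the filter for low values only through the Al libraries, so neither its call nor the share of 12.5% is read as a result, and the other 7 tested genes were not called. Of 10 genes of import, porins and matrix proteins, 2 were called higher, the import genes Tomm20 (1.24, SE 0.14) and Timm23 (0.81, SE 0.21), and 1 lower, the porin gene Vdac3 (-0.83, SE 0.12). The deposited values gave 0.76, 0.32 and -1.32, so that Timm23 was under the fold threshold. The median of this list was 0.30 after scaling and -0.19 with FPKM as deposited.

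**Figure D4:**
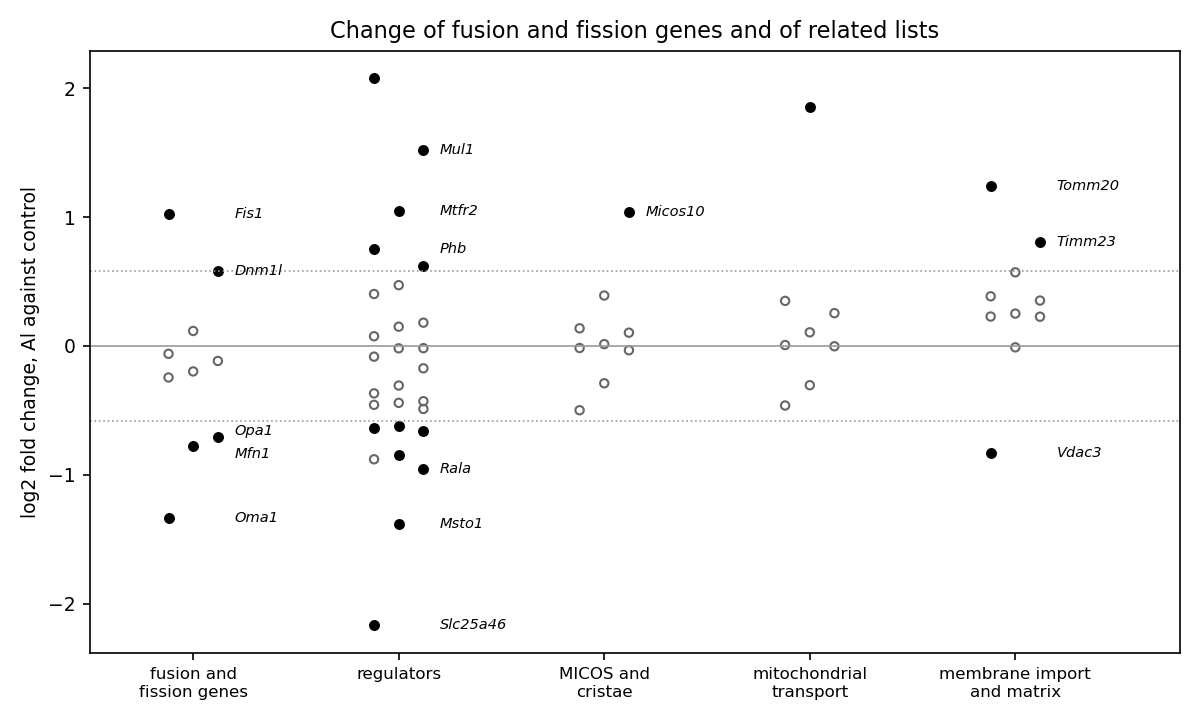
Log2 fold change, Al against control, of the 10 fusion and fission genes and of 4 related lists; filled circles were called and open circles were not, and dotted lines mark 0.58 in either direction. Called genes lie on both sides of 0 among the members and the regulators, from -2.17 for Slc25a46 (SE 0.22) to 2.08 for Pld6 (SE 0.51), a gene of low level.

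By position, in the GRCm38 coordinates of GENCODE M21, the genes that were called lower are Mfn1 (chr3:32529465-32579239, plus strand), Opa1 (chr16:29579334-29654884, plus strand) and Oma1 (chr4:103313812-103371868, plus strand). Those called higher are Dnm1l (chr16:16312230-16358959, minus strand) and Fis1 (chr5:136953275-136966234, plus strand). Mff and Mief1 also share exon bases with another gene, Mff 195 bases with the antisense C430014B12Rik and Mief1 213 bases with AC140267.1 on its own strand, and the strand setting of the counting is not given in the sources used here.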

How the data were processed

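RNA-seq input libraries of HT22 cells, 3 control and 3 Al, were analysed; m6A peaks were not used. The authors deposited FPKM values, 1 per gene symbol and library. The paper's methods name Trimmomatic, SortMeRNA, HISAT2 and GRCm38/mm10, whereas the submitters' processing notes name fastp, HISAT2, HTSeq and GRCm39; which made the table is not given in the sources used here. Whole reads could be recovered for 17688 of the 17688 genes above 0, and returned the deposited values within a relative error of 2.11e-10. They are the smallest whole numbers that fit, so a common divisor may be missing. The paper calls the 3 libraries per group biological replicates. Whether they came from separate cultures is not given in the sources used here, so P values measure the spread between these libraries.

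Size factors (0.802 to 1.21) were medians of ratios over 10337 genes. Genes were tested if their mean FPKM reached 0.1, with limma 3.58.1 in R 4.3.3 (lmFit, eBayes with trend) on log2(scaled FPKM + 0.1), a scale on which changes of low genes are understated, with Benjamini-Hochberg adjustment over 12889 genes. The steps were run on simulated data in which few genes changed, equally in both directions and without a relation to gene length. Those data held no shift in library makeup like that between these groups, so they could not check the scaling. The members, lists and motifs were chosen with earlier results of these data known. All members were named; from each further list the 3 called genes with the largest rise and the 3 with the largest fall were named if their mean FPKM reached 1. Marchf5 was read from a symbol that had been turned into a date. Older symbols were used for 4 genes. Copies were sought with minimap2 2.31-r1302. Promoters came from RefSeq (GRCm38.p6) and positions from GENCODE. Alternatives covered the scaling, pseudocount, filter, trend, replicate block, left-out libraries, thresholds and a fit of the recovered reads with limma voom; centring on length (by either length, also for the balance) and GENCODE exon lengths were added after the data were seen. Python 3.11.15, numpy 2.4.6, pandas 2.3.3 and matplotlib 3.10.9 were used.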

Additional observations from a re-analysis of the deposited data

How the results depend on the processing

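Apart from the higher fold threshold below, Mfn1 and Oma1 kept their direction and call under every alternative run (Oma1 was not tested at a mean of at least 1 FPKM), Opa1 under all but quantile normalization (-0.55) and centring on length (-0.57, or -0.44 with GENCODE exon lengths), and the fusion to fission ratio stayed lower in the Al group in all of its forms. With FPKM as deposited, 0 members were called higher and 6 lower, and 1805 and 5417 of all tested genes. With TPM, 0 members were called higher and 8 lower, and 1200 and 6843 of all tested genes. Quantile normalization called 0 members higher and 2 lower (2846 and 3127 of all tested genes), a pseudocount of 1 called 1 and 3 (2716 and 2416), and centring on length 1 and 2 (3169 and 3240), or 2 and 2 by GENCODE exon length (3168 and 3245). With an absolute log2 fold change over 1, 1 member was called higher (Fis1) and 1 lower (Oma1), and 2065 and 1816 of all tested genes. Leaving out each library in turn gave 1 to 2 members called higher and 3 lower, beside 3197 to 3468 and 2962 to 3294 of all tested genes.

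The Al to control ratio of the fusion to fission balance was 0.457, and 0.703 without Fis1, 0.507 with the protease genes Oma1 and Yme1l1 added to the fusion genes and 0.558 from mean log2 FPKM, or 0.649 and 0.606 from mean fitted changes centred on length by the length behind FPKM and by GENCODE exon length. It was 0.443 to 0.471 with a library left out. Directions reversed for Yme1l1 when centred on length (0.044), without control replicate 2 (0.027) and without Al replicate 1 (0.035), within a range of -0.12 to 0.035 over the left-out libraries, and for Yme1l1 (0.21) and Mff (0.023) when centred by GENCODE exon length, for Dnm1l with TPM (-0.20), for Mief1 as deposited (-0.37) and with TPM (-0.66), and for Mief2 with quantile normalization (0.11). None of these reversed genes was called in that setting except Mief1 with TPM. The cause was not tested.

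Same-numbered libraries of the groups did not deviate together (correlations -0.03, -0.03 and -0.07), so the numbers gave no pairing. With a replicate block, 2 members were called higher and 3 lower, and 3352 and 3123 of all tested genes. Oma1 had 57 to 99 reads per Al library, the lowest depth among the members.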
